A study of Triticum aestivum with 4 samples.

Results

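Leaves and roots of well-watered wheat were set against each other, gene by gene. The plants, of the Brazilian cultivar MGS1 Aliança, were tillering and 5 weeks old, and had grown at 100% of field capacity, which is the water a drained soil holds. The leaves of 1 pot of 3 plants were pooled into the leaf control library, and the roots into the root control library, so that each organ is represented by 1 pool with no replicate. These are 2 of the 4 libraries of the series. The other pair is leaf and root of droughted plants of the same age, given 75% of field capacity during the first 2 weeks and no water during the last 3, and it is used below as a second view of the organs. The authors assembled the reads of leaves and of roots separately, into transcript models called isotigs that are grouped into isogroups, so a gene can be compared between the organs through its best Arabidopsis match only. A gene here is therefore an Arabidopsis locus with all the wheat isogroups that match it best. Of 10711 such genes in either assembly, 10024 had a read in a watered library, 6110 in the leaf library and 8527 in the root library.

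Leaves of a cereal at tillering are photosynthetic organs: thylakoid membranes capture light with chlorophyll-binding antenna proteins and photosystems, and the Calvin cycle in the stroma fixes carbon dioxide through Rubisco. Roots import this carbon as sucrose, and they take up water and mineral ions through membrane channels and transporters, while their tips divide, elongate and build new walls. Gene names and roles below are those of the matched Arabidopsis gene, since the files give the isotigs no wheat gene names or positions.

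The gene counts summed to 83354 reads in leaf and 108540 in root, 41.0% and 53.6% of all isogroup reads of the library. The remainder was dominated by isogroups with ribosomal RNA-like isotigs, which took 43.4% of the isogroup reads in leaf and 33.7% in root. The 10 genes with most reads held 20.7% of the gene reads in leaf (95% exact binomial interval 20.5 to 21.0%) against 5.68% in root (5.54 to 5.82%). In leaf 186 genes made up the first 50% of the reads, and in root 875 genes did. The median gene with at least 10 reads in the pair had a log2 ratio of leaf over root of -1.15, a 2.23-fold lower share in leaf. Ratios of gene groups are therefore also given relative to the median gene. In pooled organs, fewer cells of a type and less RNA per cell cannot be told apart.

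The organ labels were checked against marker genes. Of 25 leaf mesophyll markers, 18 had an isotig, all 18 had leaf reads (13955 in all, 16.7% of the leaf gene reads), and 17 were at 0 in root, where LHCB3 alone had 2 reads. Of 18 root markers, 11 had an isotig, and all of these had root reads (388 in all) while 8 were at 0 in leaf, among them RHD2, the NADPH oxidase of root hairs, and the peroxidase RCI3. The exceptions were PHT1;4 with 17 leaf and 65 root reads, NAS4 with 19 and 52, and PIP2;4 with 33 and 12. Defining root genes that no isotig of either assembly had as its best match by symbol included CASP1, CASP2, IRT1 and CYP86A1. Markers were looked up by symbol, so a wheat gene matched under another name or family member would be missed.

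In all, 4244 genes had at least 10 reads in the 2 libraries together and were compared. A gene was called when its shares differed at least 4-fold, with 0 reads counted as 3, and the 95% exact interval of the ratio excluded 1. By this rule 693 genes were higher in leaf (16.3% of those compared) and 1109 were higher in root (26.1%), while 2442 were not called. The rule is not symmetric at 0 reads: with the smaller leaf library, every one of the 384 compared genes at 0 in root was called higher in leaf, which the minimum of 10 reads fixes, whereas 346 of the 671 at 0 in leaf were called higher in root. For a gene at 0, "at least" gives the ratio with 3 reads in place of 0, the number a count of 0 allows, and the lower limit of the 95% exact interval is smaller (2387 for RBCS1A in leaf and 86.4 for PIP2A in root). There is 1 library per organ, so no test between organs is possible, and the intervals cover counting error only and compare these libraries. The called genes weighed very differently in the 2 pools. Those higher in leaf took 58.3% of the leaf reads and 1.60% of the root reads, and those higher in root took 3.30% of the leaf reads and 38.9% of the root reads. When the libraries were rescaled so that the median gene had equal shares, 982 genes were called higher in leaf and 291 higher in root, so the balance between the directions depends on the scaling. Below, a count "with median scaling" is the count after this rescaling, to be read against 982 and 291 of all 4244 genes.

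**Figure D1:**
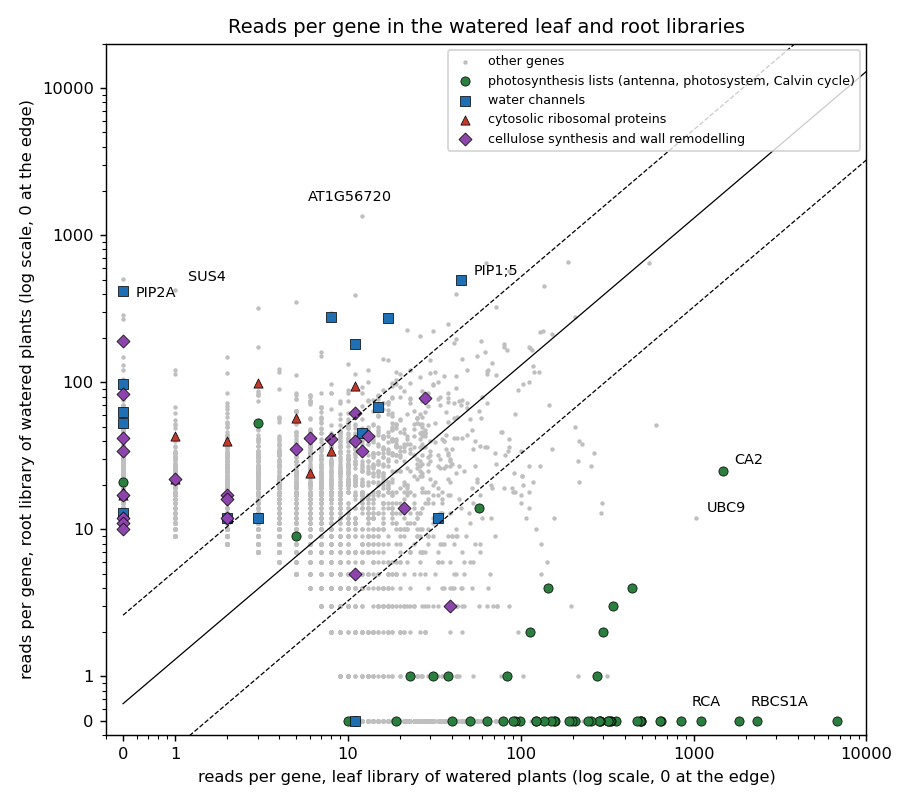
Reads per gene of the leaf library (horizontal, log scale) and of the root library (vertical, log scale) for the 4244 genes with at least 10 reads, with 0 reads drawn at the edge. The solid line marks equal shares and the dashed lines 4-fold differences; photosynthesis genes lie along the lower edge at 0 root reads, up to RBCS1A with 6764 leaf reads, and most water channels lie above the upper dashed line.

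A read count of 0 was common on both sides. In root 384 of the compared genes had no read, 337 of them without any isotig in the root assembly, and in leaf 671 had none, 513 of them without a leaf isotig. Unassembled single reads, which the authors deposited per organ without telling watered from droughted plants apart, matched 108 of the 384 genes in root and 235 of the 671 in leaf. A gene at 0 reads is thus not shown to be silent.

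The 12 genes farthest apart on the leaf side were proteins of light capture and carbon fixation. RBCS1A, the small subunit of Rubisco, had 6764 leaf reads and 0 root reads, at least 2936-fold higher in leaf. LHB1B2, an antenna protein of photosystem II, had 2335 and 0 reads, at least 1014-fold higher in leaf. RCA, the Rubisco activase, had 1822 and 0 reads, at least 791-fold higher in leaf. Close behind these came FBA2, the plastid fructose-bisphosphate aldolase (1103 leaf and 0 root reads), LHCB2.1 (846 and 0), the photosynthetic glyceraldehyde-3-phosphate dehydrogenase subunits GAPA-2 (651 and 0) and GAPB (496 and 0), and PSBO2 of the oxygen-evolving complex (641 and 0). LHCB5 (495 leaf and 0 root reads), LHCB4.1 (491 and 0), LHCB4.2 (473 and 0) and AT1G56190, annotated with phosphoglycerate kinase activity (362 and 0), completed the 12. Their reads were spread over many assembled genes in several cases, 37 leaf isogroups for LHB1B2 and 19 for RBCS1A.

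On the root side the list was mixed in function. PIP2A, a plasma membrane water channel, had 0 leaf reads and 417 root reads, at least 107-fold higher in root. SUS4, a sucrose synthase that cleaves imported sucrose, had 1 leaf read and 425 root reads, 326-fold higher in root (interval 58.3 to 12921). The peroxidases AT1G71695 (0 leaf and 286 root reads), AT4G33420 (0 and 198) and AT5G19890 (0 and 148) were at least 73.2, 50.7 and 37.9-fold higher in root. CSLC12, a member of a family that makes the glucan backbone of xyloglucan, had 0 and 190 reads, at least 48.6-fold higher in root, with 189 of the root reads in 1 isogroup. Also among the 12 were ATTPS6, a trehalose-phosphate synthase family member (0 leaf and 131 root reads), and AO1, an aldehyde oxidase (0 and 121).

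The remaining 4 of these root genes also had most of their reads in 1 isogroup. The kinase match AT1G56720 had 12 leaf and 1361 root reads, and 1347 of the root reads lay in 1 isogroup. TTN8, a cohesin-related chromosome protein, had 3 and 320 reads, 316 of them in 1 isogroup. PCNA2, the sliding clamp of DNA replication, had 0 leaf and 505 root reads, but 503 of these came from an isogroup that also holds ribosomal RNA-like isotigs, as did all 268 root reads of AT5G41040, a hydroxycinnamoyltransferase annotated to suberin synthesis that had 0 leaf reads. Without such isogroups neither gene reached 10 reads, and the numbers called were 692 higher in leaf and 1111 higher in root.

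**Figure D2:**
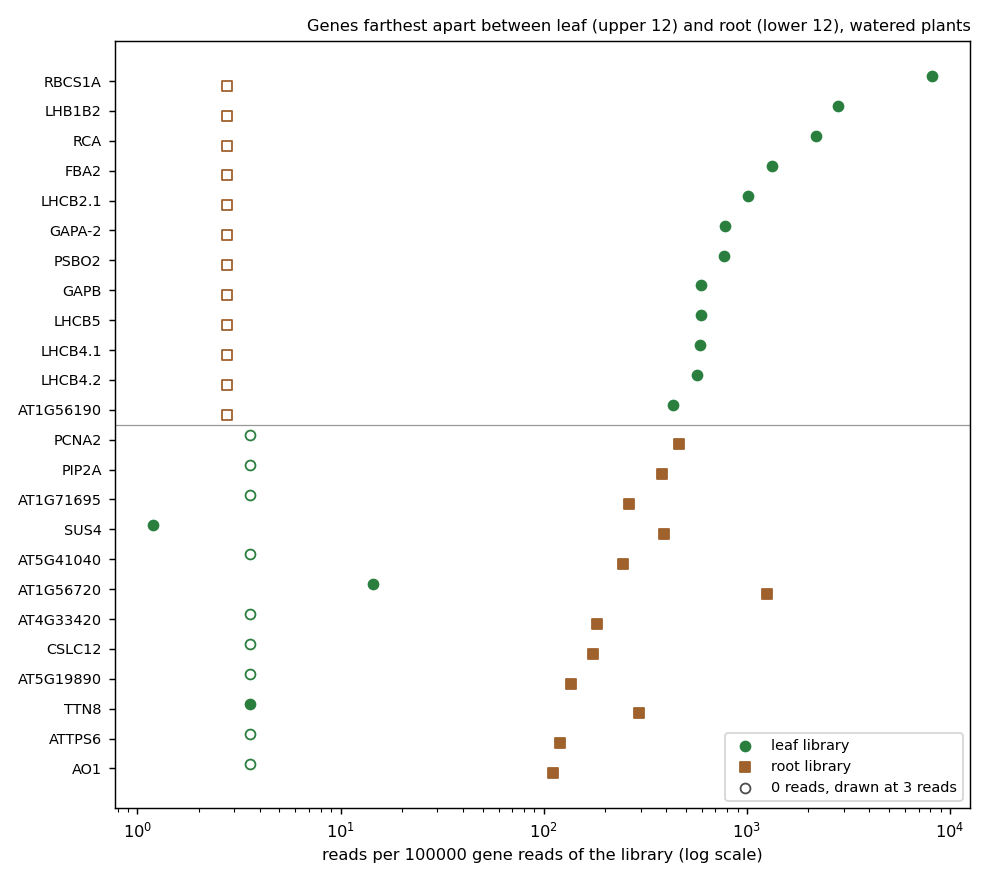
Reads per 100000 gene reads (log scale) in the leaf library (circles) and the root library (squares) for the 12 genes farthest apart in each direction, with open symbols for 0 reads drawn at 3 reads. The upper 12 genes have no root reads, from RBCS1A down to AT1G56190, and of the lower 12, SUS4, AT1G56720 and TTN8 have leaf reads.

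Photosynthesis separated the organs almost completely. All 14 measured antenna proteins, which bind chlorophyll and pass on light energy, were higher in leaf, with 6914 leaf reads and 6 root reads in sum, a median log2 ratio of 7.22 and 8.37 above the median gene. Of 24 measured subunits of the photosystems and of electron transport, 23 were higher in leaf, among them PSBQA (441 leaf and 4 root reads, 144-fold, interval 55.7 to 529), PSBR (340 and 3) and the plastocyanin DRT112 (327 and 0). The exception was RFNR2, the root form of ferredoxin-NADP reductase, with 3 leaf and 53 root reads, 13.6-fold higher in root (4.40 to 67.9). In Arabidopsis this form supplies reduced ferredoxin in plastids that do not photosynthesise.

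The list of Calvin cycle and Rubisco also holds carbonic anhydrases, which are not enzymes of the cycle. Of its 17 measured genes, 15 were higher in leaf, and the list summed to 16% of the leaf gene reads and 0.0673% of the root gene reads. It had 13339 leaf and 73 root reads, and the carbonic anhydrase family had 1497 and 55. Both members not called higher in leaf were carbonic anhydrases. CA2, a carbonic anhydrase, had 1486 leaf and 25 root reads, 77.4-fold higher in leaf (52.2 to 120). BCA4, another carbonic anhydrase, had 0 leaf and 21 root reads and was called higher in root, though not with median scaling, and BCA6 had 5 and 9 reads and was not called. Over the whole carbonic anhydrase family the leaf share was 35.4-fold the root share (27.1 to 47.3). Of the photosynthesis genes named, BCA4 alone lost its call with median scaling.

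Photorespiration and chlorophyll synthesis went the same way, with summed shares 14.1-fold and 22.8-fold higher in leaf. Photorespiration recovers carbon after Rubisco has reacted with oxygen. Of the 8 measured genes of its list 7 were higher in leaf, with a median log2 ratio of 3.78. The GO term photorespiration was less one-sided: of 13 measured genes 6 were higher in leaf, 1 in root and 6 not called (median 0.74). GLDP1, a subunit of glycine decarboxylase in mitochondria, had 604 leaf and 51 root reads, 15.4-fold higher in leaf (11.6 to 20.9). AOAT2, a glutamate:glyoxylate aminotransferase, had 294 and 15 reads, SHM1, the serine hydroxymethyltransferase, 255 and 27, and GLU1, the ferredoxin-dependent glutamate synthase, 227 and 38. HPR, the hydroxypyruvate reductase of peroxisomes, had 186 and 0, the aminotransferase AGT 139 and 0, and the plastid glutamine synthetase GS2 151 and 35. PGLP2, with 5 leaf and 6 root reads, was not called. In chlorophyll synthesis 11 of 14 were higher in leaf and none in root, led by the magnesium chelatase subunit GUN5 (317 leaf reads and 1 root read) and by HEMA1, which commits glutamate to tetrapyrroles (290 and 13, 29.0-fold, 16.7 to 55.2). CRD1 (122 and 0) and the chlorophyll b synthase CH1 (79 and 0) were also higher in leaf. The early steps HEMB1 (18 and 17 reads) and GSA1 (19 and 13), which also serve haem, were not called, though GSA1 was called higher in leaf with median scaling.

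Starch and the leaf surface added smaller groups. Of 13 measured genes of starch metabolism 7 were higher in leaf and none in root, among them the starch synthase SS1 (43 leaf and 0 root reads), ADG1, the small subunit of ADP-glucose pyrophosphorylase (36 and 8), the disproportionating enzyme DPE2 (39 and 2) and APL1 (30 and 0). Of 5 measured genes of cuticle and wax, 4 were higher in leaf. These were the lipid transfer protein LTP4 (56 and 0), the cutin and wax exporter ABCG11 (18 and 4), the wax elongase KCS6 (17 and 0) and CER3 (11 and 1), while CER10 had 0 leaf and 10 root reads and was not called.

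The GO terms that the authors attached to each match show the same division for the chloroplast. Genes annotated to the chloroplast held 53.3% of the leaf gene reads (53.0 to 53.6%) and 12.3% of the root gene reads (12.1 to 12.5%). They were 54.7% of the genes called higher in leaf and 8.75% of those called higher in root, against 17.6% of all genes compared. Mitochondrial genes held 7.68% of the leaf reads and 6.74% of the root reads. Of 241 measured, 37 were higher in leaf (15.4%, against 16.3% of all genes) and 41 in root (17.0%, against 26.1%). With median scaling the counts were 56 and 13, where all 4244 genes gave 982 and 291. Shares of plasma membrane genes were 9.85% in leaf and 20.5% in root, of plasmodesma genes 5.15% and 12.5%, and of nucleolus genes 1.22% and 4.35%. The median log2 ratios of these 3 groups were only 0.34, 0.58 and 0.90 below the median gene. With median scaling 78 of 640 plasma membrane genes were higher in leaf and 64 in root. For plasmodesma the counts were 31 and 34 of 292, and for nucleolus 4 and 15 of 92.

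**Figure D3:**
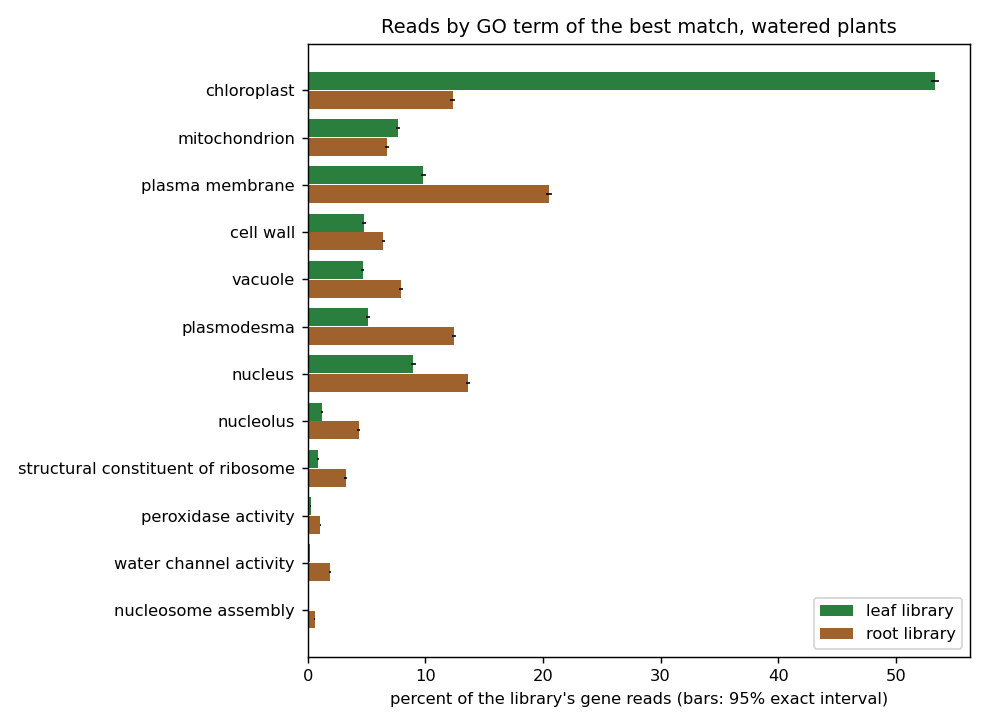
Percent of the gene reads of the leaf library (upper bar of each pair) and of the root library (lower bar) in genes of each GO term, with 95% exact intervals as error bars. The chloroplast term holds 53.3% of leaf and 12.3% of root reads, and the plasma membrane term 9.85% and 20.5%. Shares are not set relative to the median gene, whose share was 2.23-fold lower in leaf.

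Water channels had a median log2 ratio of -3.07, 1.92 below the median gene (1.17 below it among genes with an isotig in both assemblies), and 9 of 15 measured members were higher in root (7 with median scaling). PIP1;5 had 45 leaf and 493 root reads, 8.41-fold higher in root (6.19 to 11.7), a call that was lost with median scaling. PIP1;4 had 8 and 276 reads, 26.5-fold higher in root (13.3 to 62.0), and TIP1;3, a channel of the vacuole membrane, 17 and 272, 12.3-fold (7.53 to 21.4). Other vacuolar members had the same direction, GAMMA-TIP with 11 leaf and 182 root reads and TIP2;3 with 0 and 98. In sum the plasma membrane family had 103 leaf and 1322 root reads, and the tonoplast family 42 and 617. PIP2;8 (0 and 63), DELTA-TIP (0 and 53) and PIP2B (2 and 12, not with median scaling) were also higher in root. TIP2, a tonoplast channel as well, was the single member higher in leaf, with 11 and 0 reads, and PIP2;4, with 33 and 12, was called higher in leaf with median scaling only.

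Sugar handling differed by enzyme. Besides SUS4, SUS6 (0 leaf and 47 root reads) and the neutral invertase A/N-InvF (0 and 16, not with median scaling) were higher in root. The sucrose transporter SUT2 (103 and 20, 6.71-fold, 4.13 to 11.4) and the sugar transporter SWEET2 (29 and 9, 4.20-fold, 1.93 to 10.1) were higher in leaf. Both calls were lost with reads per kilobase, and that of SWEET2 also with isogroup sums and library totals. Over 5 sucrose synthase genes there were 27 leaf and 492 root reads, a 14-fold higher share in root (9.50 to 21.5). SUS4 alone held 425 of these root reads. SUS2 leaned to leaf (21 and 9, log2 ratio 1.60) and was not called. SUS3 (5 and 4) and SUS5 (0 and 7) had too few reads to be compared. The list as a whole had 13 measured members and a median 0.37 above the median gene.

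**Figure D4:**
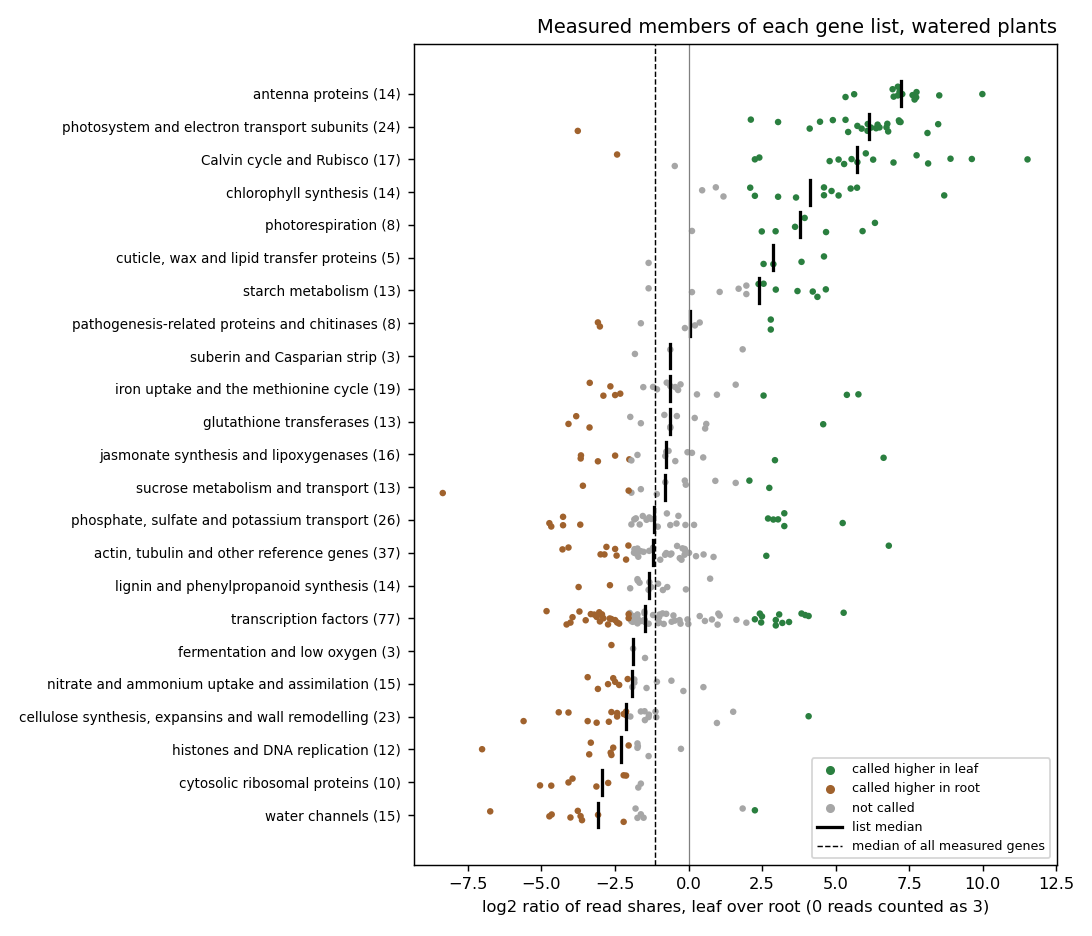
Log2 ratio of read shares, leaf over root, for the measured members of each gene list (number in parentheses), coloured by call, with bars at list medians and a dashed line at the median of all 4244 genes, -1.15. Lists of photosynthesis lie at the top with medians up to 7.22, and water channels at the bottom with a median of -3.07.

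In the list of cellulose synthesis, expansins and wall remodelling, 12 of 23 measured genes were higher in root and 1 in leaf (4 and 3 with median scaling). CESA2, a catalytic subunit of cellulose synthase, had 0 leaf and 83 root reads, at least 21.2-fold higher in root, and CESA6 was the exception with 39 and 3 reads, 16.9-fold higher in leaf (5.38 to 85.6). CSLD2, which acts in root hairs (11 and 62), and IRX3, a subunit for secondary walls (6 and 42), were 4.33-fold and 5.38-fold higher in root, but not with median scaling. Of 20 measured genes with peroxidase activity 11 were higher in root (6 with median scaling). RCI3 had 0 leaf and 69 root reads, PRX52, with 113 and 170, was not called, and APX4, an ascorbate peroxidase relative of the chloroplast, was the single member higher in leaf (31 and 0).

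The machinery of protein synthesis and chromatin also held a larger share in root. Of 97 measured structural proteins of the ribosome 62 were higher in root and 12 in leaf (28 and 14 with median scaling), and together they held 0.891% of the leaf reads (0.829 to 0.958%) and 3.23% of the root reads (3.13 to 3.34%). Named cytosolic members were P40 (3 leaf and 99 root reads, 25.3-fold, 8.42 to 125), RPL10B (11 and 95), RPL18 (5 and 57) and emb2171 (1 and 43), all higher in root, RPL10B and RPL18 not with median scaling. Genes of nucleosome assembly had 74 leaf and 675 root reads, and 12 of 15 were higher in root (2 with median scaling) and none in leaf. Among the histones, which package new DNA, AT1G09200 had 0 and 102 reads, HTB2 7 and 57 and HIS4 4 and 54, all higher in root, HTB2 not with median scaling.

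The list of lignin and phenylpropanoid synthesis had a median 0.19 below the median gene. Of 14 measured (14.3% called higher in root, against 26.1% of all genes), 4CL1 (7 leaf and 58 root reads) and PAL2 (3 and 52, 13.3-fold, 4.31 to 66.6) were called higher in root, 4CL1 not with median scaling, and PAL1, with 137 and 449, had a 2.52-fold higher share in root (2.07 to 3.07), which is under the 4-fold rule and close to the median gene. Of the suberin and Casparian strip list 3 genes were measured and none was called: GPAT6 had 5 leaf and 23 root reads, KCS2 5 and 10, and FAR1 (AT5G22500) 11 and 4. Fermentation genes were thinly covered, with 3 measured and PDC2, pyruvate decarboxylase, alone called, at 2 leaf and 16 root reads (6.14-fold higher in root, 1.44 to 55.1), a call lost with median scaling.

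In the list of uptake and assimilation of nitrogen, 7 of 15 measured genes were higher in root (46.7%, against 26.1% of all genes) and none in leaf. With median scaling GLT1 alone kept its call. The list leaves out GS2 and GLU1, which were placed with photorespiration above and were higher in leaf. Over 3 glutamine synthetases the leaf share was 1.72-fold the root share (1.36 to 2.19). Of 6 measured genes with the GO term nitrate assimilation, 1 was higher in leaf and 3 in root. GLT1, the NADH-dependent glutamate synthase, had 2 leaf and 28 root reads (10.8-fold, 2.71 to 93.1), the glutamate dehydrogenase GDH1 0 and 33, the cytosolic glutamine synthetase GSR2 11 and 60 and the ammonium transporter AMT2 0 and 26. The remaining called members were GDH3, NRT1.8 and WR3. By shares of gene reads nitrate reduction was near parity. NIR1, nitrite reductase, had 96 leaf and 88 root reads, and NIA2, nitrate reductase, had 49 and 72, and neither was called. This parity depends on the scaling, since NIR1 had a log2 ratio of 0.51 where the median gene was at -1.15.

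For phosphate, sulfate and potassium 6 of 26 genes were higher in leaf (23.1%) and 5 in root (19.2%), against 16.3% and 26.1% of all genes, and the median equalled that of all genes to within 0.01. Higher in root were PHT1;5, a phosphate importer of the plasma membrane (0 leaf and 99 root reads), PHO1, which exports phosphate to the xylem (3 and 75), the sulfate transporter SULTR3;5 (2 and 69) and the ATP sulfurylases APS4 (2 and 50) and APS3 (0 and 50). The direction of PHO1 reversed, to a log2 ratio of 0.40, with reads per kilobase, where its 3 leaf reads lie on 1 isotig of 85 bases. Higher in leaf were the organellar phosphate carriers PHT2;1 (22 and 0), PHT4;1 (22 and 0), PHT4;5 (17 and 0) and PHT3;1 (29 and 1), along with APS2 (19 and 0) and APR1, which reduces activated sulfate (90 and 18).

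In the list of iron uptake and the methionine cycle, 3 of 19 measured genes were higher in leaf (15.8%) and 5 in root (26.3%), near the shares of all genes. The nicotianamine synthase NAS3 (6 leaf and 80 root reads, 10.2-fold, 4.50 to 28.7), the transporter YSL6 (5 and 41), NRAMP6 (0 and 29), ZIP2 (0 and 22) and MTN2 (2 and 13) were higher in root, of which NAS3 alone was called with median scaling. FRO7, the ferric reductase of the chloroplast envelope (42 and 1), MAT3, an S-adenosylmethionine synthetase (96 and 0), and YSL2 (9 and 2) were higher in leaf. As SAM-2 had 134 and 223 reads, the family of synthetases summed to 230 leaf and 223 root reads, a 1.34-fold higher share in leaf (1.11 to 1.62).

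Such splits within a family recurred in defence and detoxification. LOX2, the chloroplast lipoxygenase that opens jasmonate synthesis, had 228 leaf and 0 root reads, at least 99.0-fold higher in leaf, and LOX3 had 100 and 17. LOX1 had 5 and 82 reads, 12.6-fold higher in root (5.18 to 39.8), and LOX5, with 127 and 117, was not called. Further along the pathway AOS (2 and 33), JAR1, ACX4 and the repressor JAZ12 (3 and 33) were higher in root, of which AOS alone was called with median scaling. Of the 16 measured genes of the jasmonate and lipoxygenase list, 5 were higher in root (31.25%) and 2 in leaf (12.5%). These shares are near the 26.1% and 16.3% of all genes, and the list median was 0.38 above the median gene. Among glutathione transferases GSTF3 had 55 leaf and 0 root reads, whereas ERD9 (10 and 134), GSTU8 (0 and 55) and GSTU25 (1 and 22) were higher in root. Of 13 measured, 3 were thus higher in root (23.1%) and 1 in leaf (7.69%), with a median 0.54 above the median gene. Of the pathogenesis-related and germin-like proteins, BGL2, a glucanase (8 and 84), and GLP6 (0 and 33) were higher in root, though not with median scaling, and GER3 and the chitinase HCHIB (both 16 and 0) in leaf. Each direction held 2 of the 8 measured (25%). Since the assemblies are separate, isotigs of the same wheat family can take the name of different Arabidopsis members in leaf and in root, and whether a split of this kind is one of naming was not tested.

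Transcription factors numbered 77 measured, 13 higher in leaf (16.9%) and 22 in root (28.6%), shares close to the 16.3% and 26.1% of all genes (18 and 7 genes with median scaling). MYB48 had 8 leaf and 295 root reads, 28.3-fold higher in root (14.2 to 66.2), and its relative MYB59 had 7 and 161, 17.7-fold (8.38 to 44.6). LHY, a core gene of the circadian clock, had 206 and 50 reads, 5.36-fold higher in leaf (3.92 to 7.46), and COL4, of the CONSTANS-like family, had 89 and 0. Other clock-linked genes had the same direction, PRR7 with 52 leaf and 4 root reads, PRR5 with 41 and 5 and PRR3 with 21 and 0, and of 31 measured genes annotated to circadian rhythm 10 were higher in leaf and 5 in root (13 and 1 with median scaling). The 2 libraries hold 1 harvest time each.

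Genes often used as references did not all hold a level share. ACT7 had 116 leaf and 165 root reads, a ratio of 1.09 in favour of root (0.856 to 1.40), and VHA-A, a vacuolar proton pump subunit, had 46 and 42. The tubulins TUA6 (42 and 396, 7.24-fold, 5.26 to 10.2), TUB6 (16 and 144) and TUB3 (12 and 85) were higher in root, though not with median scaling, and so was ACT11 (2 and 44) under both. UBC9, a ubiquitin-conjugating enzyme, went the other way with 1031 leaf and 12 root reads, 112-fold higher in leaf (63.8 to 217), and all its leaf reads lay in 1 isogroup. Of 37 reference genes measured 26 were not called, where 2442 of all 4244 genes were not. Higher in root were 9 (24.3%, against 26.1% of all genes) and higher in leaf 2 (5.41%, against 16.3%). Their list median was within 0.05 of that of all genes.

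The same organs of the droughted plants gave a second pair of libraries, which share the assemblies and differ in water supply, and are no replicate. Of the 693 genes higher in leaf, 430 had at least 10 reads in the droughted pair, and 343 of them were again called higher in leaf (79.8%), where 16% of all genes compared in the droughted pair were. Of the 1109 genes higher in root, 794 were measured and 230 were again called higher in root (29.0%), where 11.5% of all genes were. The sign of the ratio was the same in 415 of the 430 and in 665 of the 794. Part of this was fixed in advance. Of the 693 genes, 337 had no isotig in the root assembly and so 0 root reads in both pairs. Any of these with 10 droughted reads is called higher in leaf again, whereas 10 root reads against 0 in leaf give no call. Among genes with an isotig in both assemblies the shares called again were 66.0% for leaf and 25.7% for root. The droughted pair was centred elsewhere, at a median log2 ratio of -0.26 against -1.15 in watered plants, and with both pairs scaled to their median gene the shares called again were 64.5% for leaf and 38.1% for root.

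By group, 13 of 13 antenna proteins and 13 of 14 Calvin cycle genes measured in droughted plants were higher in leaf. RBCS1A had 901 leaf and 0 root reads there, and LHCB2.1 260 and 0. Of 12 cytosolic ribosomal proteins measured 7 were higher in root, but of water channels only PIP2A (0 leaf and 36 root reads) and PIP2;8 (0 and 19) among 7. PIP1;5 had 44 and 84 reads and PIP1;4 11 and 21, and neither was called in droughted plants. Other root-side groups did not all keep their direction. In the cellulose and wall list 2 of 18 were higher in root and 5 in leaf, and in the nitrogen list 0 of 7 and 2. For peroxidase activity the counts were 4 and 2 of 7, and for nucleosome assembly 3 and 0 of 9. All genes of the droughted pair gave 11.5% in root and 16% in leaf.

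**Figure D5:**
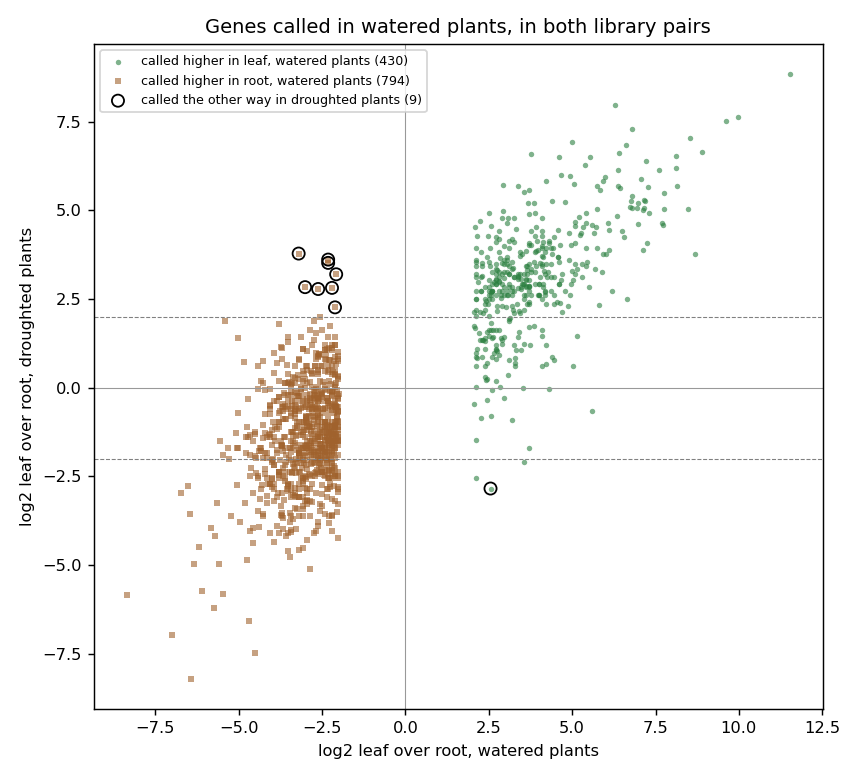
Log2 ratio of leaf over root in watered plants (horizontal) and in droughted plants (vertical) for the 430 genes called higher in leaf (circles) and the 794 called higher in root (squares) in watered plants that had at least 10 reads in the droughted pair. Dashed lines mark 4-fold differences in droughted plants, and 9 ringed genes were called the other way there.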

How the data were processed

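Total RNA of pooled leaves or roots was sequenced on a Roche GS FLX Titanium, and the authors built 1 assembly per organ (GS De Novo Assembler) and deposited the count of reads of each library per isotig and isogroup. For isotigs with a match the deposited tables give its bit score, E-value and GO terms. The bit score entered no count. Gene counts were formed here from isotigs with an Arabidopsis match at an E-value of 0.001 or below, taking for each gene and isogroup the isotig with most control and drought reads. Libraries were scaled by the summed gene counts. A count of 0 was set to 3 reads. Ratios have 95% exact Clopper-Pearson intervals conditional on the sum of both counts. Reads are not independent molecules, and intervals cover counting error only. Genes under 10 reads were left out.

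Named were the 12 called genes per direction whose interval bound lay farthest from 1, the 4 called members with most reads of each list, and members that a count of 5 or fewer needed. Other genes named were chosen after their values were seen. Members, lists and GO terms were chosen with earlier results of these data known. From 23 lists with a measured member, 23 symbols of unrelated proteins were removed and 2 antenna symbols added after symbols were seen. A list of class III peroxidases was replaced by the GO term. Calls were checked on simulated counts. Alternatives included TMM (edgeR 4.0.16), size factors (DESeq2 1.42.0), other totals, ways of counting isotigs, filters and call rules, run in Python 3.11.15 with scipy 1.17.1 and R 4.3.3. The deposited comparisons of drought with control hold the authors' own fold changes and p-values and were not used.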

Additional observations from a re-analysis of the deposited data

Results flagged for a closer look

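Called in opposite directions in the watered and the droughted pair were 9 genes, and the difference between the pairs was not tested. The single one higher in leaf in watered plants was AT2G18220, with 9 leaf and 2 root reads (log2 ratio 2.55) against 1 and 11 in droughted plants (-2.84). The other 8 were higher in root in watered plants and higher in leaf in droughted plants. TDT, the tonoplast dicarboxylate transporter, had 18 leaf and 99 root reads in watered plants (log2 ratio -2.08) and 54 and 9 in droughted plants (3.20). BGL2 had 8 and 84 reads (-3.01) against 14 and 0 (2.84), and CSLD2 had 11 and 62 (-2.11) against 22 and 7 (2.27). AT5G09300 had a log2 ratio of -2.20 in watered and 2.82 in droughted plants. Fewer reads stood behind MPK1 (-2.32 and 3.61), CIPK15 (-2.32 and 3.52), ARAC1 (-2.62 and 2.78) and AT5G55450 (-3.20 and 3.78). Relative to the median gene of each pair all 9 kept opposite signs, but with median scaling none of the 8 higher in root in watered plants was called there.

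Transcripts encoded in the plastid genome fell outside the comparison because their best matches lie in other species. The leaf library held 3937 reads of psbA2, 1710 of rbcL, 1312 of psaA, 690 of psbC, 489 of psbB, 371 of atpA, 327 of ndhD1 and 104 of petA. The root library held 1 read of psbA2 and 0 of the other 7. A further gene of this kind, psbD, had 0 leaf reads and 2 root reads.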

How the results depend on the processing

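Genes higher in root numbered 394 with TMM, 367 with DESeq2 size factors and 291 with the median gene at equal shares (a setting chosen after seeing the data, as was leaving out ribosomal RNA-like isogroups), and higher in leaf were 69.6%, 71.6% and 77.1% of the called genes, against 38.5% by summed gene reads, 25.5% by isogroup sums and 25.2% by library totals. Root calls also numbered 2288 with all isotigs summed, 738 at 20 reads or more, 1783 at 2-fold and 1746 by Fisher's exact test on reads, and leaf calls 396 at 20 reads or more and 356 for genes in both assemblies. The median log2 ratio was -0.23 with TMM, -0.17 with size factors, -1.54 by isogroup sums, -1.60 by library totals, -0.90 without the 10 top genes, -1.99 with all isotigs, -0.98 with 1 isotig, -0.81 per kilobase, -1.22 at an E-value of 1e-10, -0.20 with no minimum, -1.03 in both assemblies and 0 by construction with median scaling.

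Chloroplast genes held 69.7% of leaf and 13.8% of root reads with all isotigs, 50.3% and 12.7% with 1 isotig, 54.5% and 12.7% at the stricter E-value, and 12.1% of root reads without ribosomal RNA-like isogroups. Leaf calls met again in droughted plants were 87.8% with all isotigs, 85.8% at 20 reads, 57.0% with no minimum, 66.0% in both assemblies and 64.5% with median scaling. Root calls met again were 39.6% by isogroup sums, 42.6% by library totals, 38.7% with all isotigs, 25.2% with 1 isotig, 39.1% at 20 reads, 21.4% with no minimum, 25.7% in both assemblies, 44.9% at 2-fold and 38.1% with median scaling. Of 95 genes under the naming rule, 66 kept their call in every setting that could be run. Among the others PHO1 alone reversed, to 0.40 per kilobase. The leaf calls of ADG1, SUT2, SWEET2, ABCG11, CER3, LOX3 and LHY were lost in some setting, though not with median scaling. The causes were not tested. No paired analysis was possible because each group is 1 library. Adding single reads was not run because their names do not give the library.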
